A study of Perna viridis with 2 samples.

Results

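Genes for the mitochondrial ribosome and for the machinery that imports proteins into mitochondria were described in the mantle of the green mussel Perna viridis. Members were taken by a rule on product names that uses no measured value, although the rule was proposed with earlier results of these data known. It takes names of mitoribosomal proteins (MRPL, MRPS, 28S and 39S proteins, and RP-L or RP-S numbers without the final e that marks a cytosolic protein), of the inner and outer membrane translocases (TIM and TOM) and of the prohibitins (PHB). The rule found 64 of 78458 assembled genes. Of these, 29 were named for the large mitoribosomal subunit, 16 for the small subunit, 12 for TIM, 5 for TOM and 2 for the prohibitins, and each name occurred once.

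Untreated mature and healthy mussels from the coast, with shells of 6 to 7 cm, gave tissue from 2 mantle regions. These were the groove that forms the periostracum, set between the outer fold of the mantle and its middle fold, and the submarginal zone, which runs from the folds to the pallial line. Genotype was recorded as unknown, cell type as all types, and tissue of 6 animals was pooled per sample. Each region has 1 deposited expression profile in TPM, a length-adjusted unit relative to the sum over all genes, and the design text mentions 3 biological replicates. The values have the form of means of 3, so they carry no SD and no n here, and no difference below has a replicate check or a p-value. Where a pair of TPM values is joined by against, the groove comes first.

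Mitochondria keep a small genome of their own, and the mitoribosome, built from a large and a small subunit, translates its few messages into core subunits of the respiratory chain. All mitoribosomal proteins of animals are encoded in the nucleus, made in the cytosol and imported. Precursors are bound by TOM receptors, cross the outer membrane through TOM40, and are then sorted by the TIM complexes into or across the inner membrane. Prohibitins form ring-shaped scaffolds in the inner membrane.

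To compare the regions, a log2 ratio of groove over submarginal zone was computed after adding 1 TPM to both values, which understates the difference of low genes. The mitochondrial genes were lower in the groove throughout. The ratio was below 0 for 64 of 64 members, as it was for 66.8% of the 28590 genes with a mean of at least 1 TPM over both regions, a minimum that all 64 members passed. Among the 15738 genes whose means lay within the range of the members' means, the share was 69.8%. The median log2 ratio of the members was -0.92, against -0.31 over those 28590 genes and -0.38 over those 15738 genes.

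The difference was moderate and much alike from member to member. A ratio of 2-fold or more was found for 28 of 64 members on the lower side, where 17.5% of all genes and 18.8% of those in the members' range lay, and for 0 members on the higher side, where 10.5% of both lay. At 4-fold on this scale, 0 members were lower, against 4.97% of all genes and 7.02% of those in the members' range, and 0 were higher, against 3.58% and 4.79%. With a pseudocount of 0.1 TPM, TIM8 passed 4-fold, at a log2 ratio of -2.25. The 2-fold threshold ran through the middle of the members, 37 of which had log2 ratios from -1.2 to -0.8. The nearest inside were MRPL21, with 4.94 TPM in the groove against 10.9 TPM, and TIM22, with 3.65 against 8.36 TPM. The nearest outside were MRPS26, with 1.28 against 3.46 TPM, and MRPL51. The count was thus sensitive to the scale. With a pseudocount of 5 TPM, 5 members passed 2-fold in place of 28, against 5.45% of all genes. With the profiles scaled by the median of ratios 5 also passed, a smaller share than the 12.7% of all genes, and with upper-quartile scaling 8 passed, against 13.8% of all genes.

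Of the 64 members, 59 (92.2%) lay within 0.5 log2 units of their own median. For all genes the share within 0.5 of the all-gene median was 50.4%. The order of the members was much the same in both regions, with a Spearman correlation of 0.93 between the profiles over 64 members. This is a description, since the members share both profiles and the same TPM scaling. The Spearman correlation between log2 ratio and mean TPM over the 64 members was -0.045.

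Member levels ran from 1.19 to 54.0 TPM in the groove (median 5.80) and from 3.14 to 79.4 TPM in the submarginal zone (median 12.5). The median member exceeded 90.8% of the genes detected in the groove and 94.1% of those detected in the submarginal zone. At least 10 TPM was reached by 16 members in the groove and by 42 in the submarginal zone. The 64 members summed to 556 against 1124 TPM, a log2 ratio of -1.02, so the groove sum was close to 1/2 of the other.

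**Figure D1:**
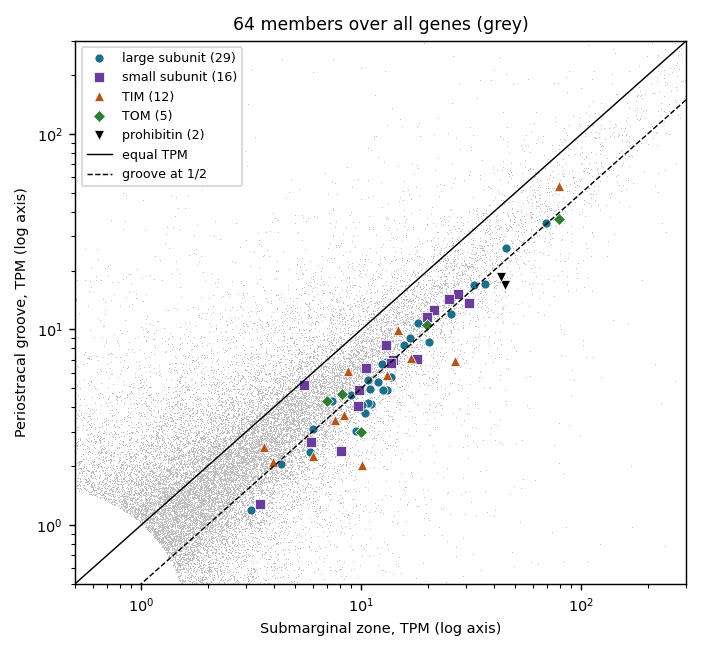
TPM of the 64 members in the submarginal zone (x, log axis) and the groove (y, log axis), coloured by role, over all genes with a mean of at least 1 TPM in grey. All 64 members lie below the line of equal TPM, and most lie close to the dashed line at which the groove has 1/2 of the submarginal value.

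All-gene values were themselves lower in the groove, and scaling by the median of ratios multiplied the groove by 1.33 and moved the all-gene median to -0.01. On that scale the members' median was -0.58 and 63 of 64 members remained below 0, against 50.6% of all genes. The exception was the small-subunit gene RP-S16.

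The 29 members of the large subunit, which holds the site of peptide bond formation, had log2 ratios between -1.39 and -0.65, with a median of -0.96. All 29 were lower in the groove and 14 passed 2-fold, or 48.3%, against 17.5% of all genes. MRPL51 was the most abundant, with 34.9 against 68.7 TPM. An entry named only as a 39s mitochondrial ribosomal protein followed, with 26.1 and 45.4 TPM. RP-L13 had 17.1 against 36.6 TPM. RP-L3, a core protein of the subunit near its catalytic centre in other ribosomes, had 16.8 against 32.5 TPM. The most abundant large-subunit genes therefore had about the same ratio as the subunit as a whole.

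RP-L7, which shares its symbol with the bacterial stalk protein L7/L12 that recruits translation factors, had 12.0 against 25.7 TPM. MRPL10, on which that stalk is anchored, had 4.63 against 8.99 TPM. The ratio of the first to the second was 2.60 in the groove against 2.86 in the submarginal zone, so the stalk pair kept a similar proportion in both regions. RP-L17, a protein close to the exit of the peptide tunnel, had 8.65 against 20.3 TPM.

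The lowest log2 ratios of the large subunit belonged to MRPL40, with 3.003 against 9.46 TPM (-1.39), and MRPL35, with 3.74 against 10.3 TPM (-1.26). RP-L27, whose bacterial counterpart reaches towards the catalytic centre, followed at 4.90 against 13.0 TPM (-1.25), and MRPL50 had 4.15 against 11.0 TPM (-1.22). The highest were MRPL46, with 4.31 against 7.33 TPM (-0.65), RP-L4, a protein that lines the peptide tunnel, with 10.7 against 18.2 TPM (-0.71), the 39s entry (-0.77) and MRPL28, with 3.07 against 6.01 TPM (-0.78). Both ends of this range were held by proteins of the central protuberance, the crest of the large subunit. Of its proteins, MRPL38, MRPL40, MRPL46 and MRPL48 had log2 ratios from -1.39 to -0.65. This set was chosen after its values were seen and is not a full list. It spans the range of the whole subunit because it holds the genes at both ends.

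The 16 members named for the small subunit, which holds the messenger RNA, had a median log2 ratio of -0.89. All 16 were lower in the groove and 4 passed 2-fold. That share of 25% was not far from the 17.5% of all genes. MRPS34 led in abundance with 13.6 against 30.8 TPM, and RP-S10 had 15.2 against 27.5 TPM. The 28S protein S14 had 14.4 against 24.95 TPM, MRPS24 had 12.6 against 21.3 TPM and MRPS18B had 11.6 against 19.9 TPM. In these genes the submarginal zone was again the higher region by a similar factor.

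MRPS30 had the lowest ratio of the group, with 2.39 against 8.03 TPM (-1.41); in mammals this protein, despite its name, is part of the large subunit. The 28S protein S6 had 7.07 against 18.0 TPM (-1.23), MRPS34 a log2 ratio of -1.12, and RP-S2, a core protein of the subunit, 4.07 against 9.63 TPM (-1.07). At the other end MRPS18 had 8.32 against 13.0 TPM (-0.58), MRPS23 had 6.31 against 10.5 TPM (-0.66) and MRPS24 had -0.71.

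RP-S16 stood apart from the other small-subunit genes. It had 5.21 against 5.47 TPM, a log2 ratio of -0.06 that became 0.30 with median-of-ratios scaling and 0.18 with upper-quartile scaling. A second assembled gene with the longer name small subunit ribosomal protein S16, which the name rule does not take, had 15.3 against 27.4 TPM (-0.80). Each name is that of a database protein matched by an assembled transcript, and whether the 2 entries are copies, alleles or pieces of 1 gene was not tested.

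**Figure D2:**
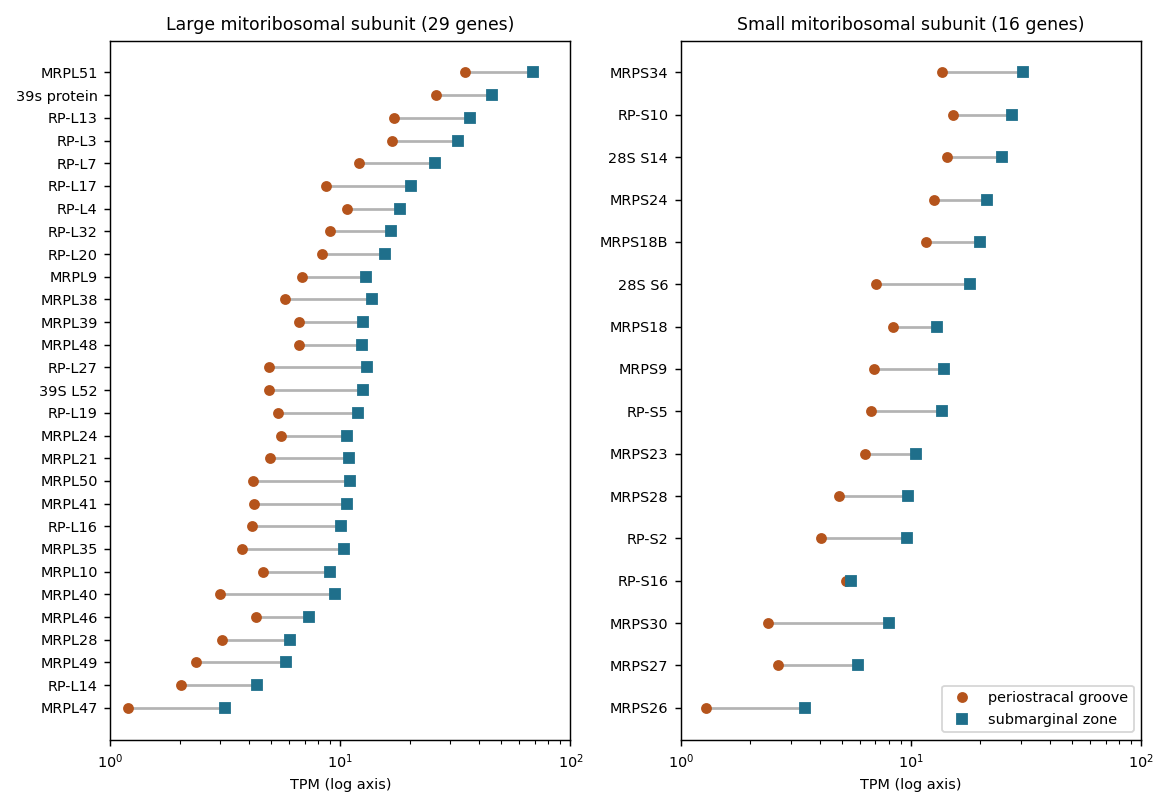
TPM (log axis) in the groove (circles) and submarginal zone (squares) for each of the 29 large-subunit and 16 small-subunit members, ordered by mean TPM, with a line joining the regions. The circle lies to the left of the square in each row, and the symbols nearly coincide only for RP-S16.

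The translocases of the inner membrane spread more widely than the ribosomal proteins, with log2 ratios from -1.86 to -0.39 over 12 TIM members (median -0.98, quartile range 0.57, against 0.31 over the 45 mitoribosomal members). The small TIM proteins, which chaperone hydrophobic precursors through the intermembrane space, held the lowest ratios of all 64 members. TIM8 had 2.03 against 10.02 TPM (-1.86). TIM10B had 6.92 against 26.6 TPM (-1.80). Their plain TPM differed by more than the log2 ratio shows, because the added 1 TPM weighs on low values.

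The other small TIM proteins were closer to the median member. TIM9 had 7.15 against 16.7 TPM (-1.12), TIM13 had 5.86 against 13.1 TPM (-1.04) and TIM10 had 2.09 against 3.95 TPM (-0.68). In yeast and mammals TIM8 works in a hexamer with TIM13, and TIM9 in one with TIM10. The TIM8 level was 0.35 of the TIM13 level in the groove, against 0.76 in the submarginal zone. TIM9 stood at 3.42 and 4.23 times TIM10 in the same order. Summed, the 5 small TIM genes had 24.1 against 70.4 TPM.

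The TIM23 complex, the presequence translocase that admits matrix proteins, had a median log2 ratio of -0.50, although TIM50 lay at the median of all members. TIM17, a channel subunit and the most abundant of the 64 members in both regions, had 54.0 against 79.4 TPM (-0.55). TIM23, its partner in the complex, had 6.11 against 8.69 TPM (-0.45). The TIM17 to TIM23 proportion was 8.83 in the groove against 9.14 in the submarginal zone. TIM21, which links the translocase to respiratory complexes, had 2.51 against 3.61 TPM (-0.39), and TIM50, the receptor of the complex, had 3.46 against 7.56 TPM (-0.94).

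The median of the 4 genes was nearer to the all-gene median of -0.31 than to the members' median. After median-of-ratios scaling their median was -0.11, with 4 of 4 still below 0. Because 4 genes from 1 profile per region allow no test, no difference between this complex and the small TIM proteins is claimed. The import motor that pulls precursors into the matrix was split. TIM16, a regulator of the motor, had 9.90 against 14.6 TPM (-0.52), and TIM44, which tethers the motor to the channel, had 2.25 against 6.03 TPM (-1.11). TIM22, the channel for carrier proteins, had a log2 ratio of -1.01.

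In the outer membrane, TOM40, the pore of the complex, had the lowest log2 ratio, at 2.98 against 9.96 TPM (-1.46). The receptor TOM22 had 10.5 against 19.9 TPM (-0.85), TOM20 had 4.67 against 8.14 TPM (-0.69) and TOM70, the receptor for carrier precursors, 4.29 against 6.96 TPM (-0.59). TOM7, a small subunit involved in assembly of the complex, was abundant, with 36.5 against 79.1 TPM (-1.09). All 5 TOM genes were thus lower in the groove, and 2 of them, TOM40 and TOM7, passed 2-fold, where 17.5% of all genes did.

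The prohibitins were close to each other in level. PHB1 had 16.9 against 44.9 TPM (-1.36), and PHB2, with which it alternates in the ring, had 18.6 against 43.0 TPM (-1.17). The proportion of PHB1 to PHB2 was 0.91 in the groove against 1.05 in the submarginal zone.

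**Figure D3:**
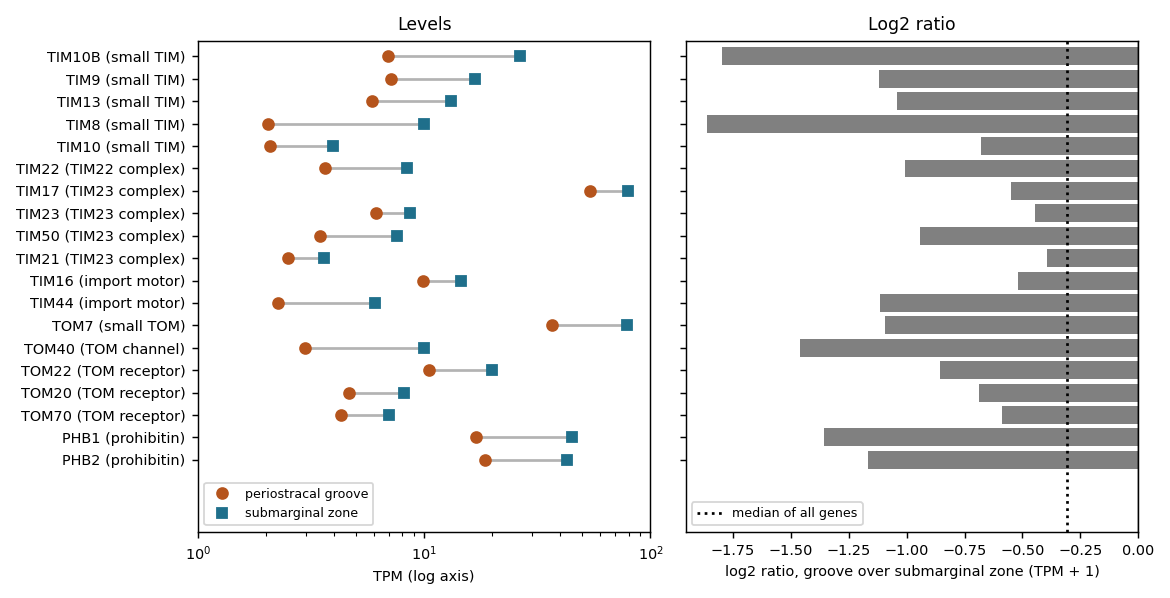
Left, TPM (log axis) of the 17 TIM and TOM genes and both prohibitins in the groove (circles) and the submarginal zone (squares); right, their log2 ratios as bars, with the all-gene median as a dotted line. TIM8 (-1.86) and TIM10B (-1.80) have the longest bars and TIM21 (-0.39) the shortest.

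A further 28 genes carry names of the same protein family in a form that the rule does not take (large or small subunit ribosomal protein with a number and no final e, and a 28s mitochondrial-like protein). This list was written after its values had been seen. Of the 27 that reached a mean of 1 TPM, 27 were lower in the groove, with a median log2 ratio of -0.86. The most abundant was L23, a tunnel-exit protein, with 53.7 against 97.5 TPM, followed by the 28s entry with 31.9 against 59.0 TPM and L15 with 21.0 against 37.0 TPM. The ratio of S36 lay far from the rest, at 5.47 against 27.8 TPM (-2.16), while the other 26 lay within 0.5 of the median. In mammals the protein of that name has since been assigned to the oxoglutarate dehydrogenase complex.

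Genes that serve the mitoribosome shared its direction. The list of mitochondrial translation factors was broad and also held leucine-rich PPR motif proteins, QRSL1 and MTFMT. Of its 8 genes, 8 were lower in the groove (median -0.74). Among them 3 passed 2-fold, or 37.5%, against 17.5% of all genes. Elongation factor Tu, which brings aminoacyl-tRNA to the ribosome, had 3.19 against 13.1 TPM. A pair of leucine-rich PPR motif proteins, which bind mitochondrial messages, had 2.69 against 4.47 TPM and 1.72 against 4.92 TPM. The name elongation factor Tu is shared with bacteria, and this entry matched a protein of Mytilus galloprovincialis. All 10 mitoribosome assembly genes with a mean of at least 1 TPM, of 13 matched, were lower (median -0.77). On the log2 scale 0 of them passed 2-fold, against 17.5% of all genes, but the added 1 TPM weighs on their low values. In plain TPM these genes were lower by a median of 2.02-fold, against 1.32-fold for all genes. The same measure was 2.13-fold for the 64 members and 2.12-fold for the translation factor list. The assembly genes were led by the assembly factor of the large subunit, with 6.12 against 9.92 TPM. The GTPase MTG1 had 4.33 against 6.74 TPM, and MTERFD had 3.10 against 6.11 TPM.

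All 15 genes for precursor processing, chaperones and sorting were lower in the groove (median -0.85). Of these, 5 passed 2-fold, or 33.3%, against 17.5% of all genes. PMPCB, a subunit of the peptidase that removes presequences, had 69.2 against 133 TPM, whereas the other subunit, PMPCA, had 5.93 against 10.4 TPM. The chaperonins GroES and groEL, which fold imported proteins, had 25.8 against 48.6 TPM and 10.7 against 26.9 TPM. SAM50, which inserts beta-barrel proteins such as TOM40, had 2.55 against 7.28 TPM, whereas the intermembrane space import protein 40 had 3.43 against 3.76 TPM. After median-of-ratios scaling 13 of the 15 were lower. PMPCA, SAM50 and the import protein were named after their values were seen.

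Of the 10 mitochondrial proteases and their partners, 10 were lower in the groove (9 after median-of-ratios scaling). Only 1 passed 2-fold, or 10%, below the 17.5% of all genes. The proteases had the median nearest to 0 among these lists (-0.56). That rank depended on the pseudocount. With 5 TPM added, the proteases had a median of -0.40, against -0.33 for both the translation factors and the assembly genes. AFG3, a subunit of the inner membrane protease that prohibitins bind, had 7.64 against 11.8 TPM, and PARL, a rhomboid protease, 5.77 against 9.77 TPM. A stomatin-like protein 2 had 13.1 against 19.5 TPM. The entry past 2-fold, named after its value was seen, was 1 of 2 for ClpX, an unfoldase of the matrix, with 1.24 against 11.8 TPM. The other, clpX-like, had 3.63 against 5.57 TPM (-0.51).

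**Figure D4:**
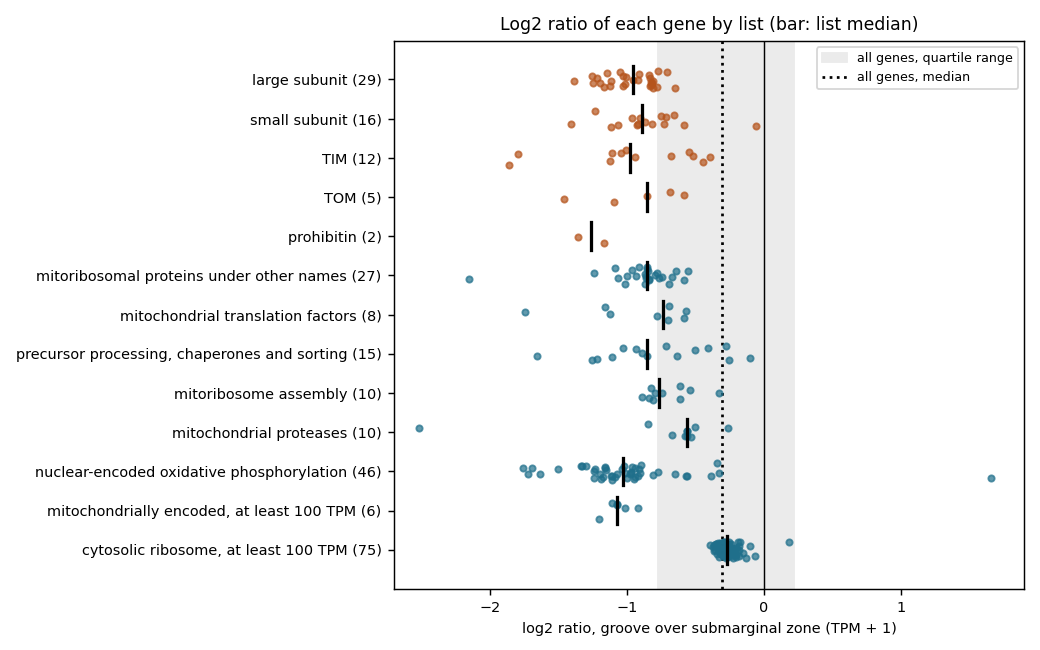
Log2 ratio of groove over submarginal zone for each gene, by role of the members (top rows) and by related list (lower rows), with the number of genes in parentheses and list medians as bars; the grey band is the quartile range of all genes and the dotted line their median. Mitochondrial lists lie to the left of the dotted line by their medians, and cytosolic ribosomal proteins of at least 100 TPM sit close to it, at a median of -0.27.

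The products of mitochondrial translation and their nuclear-encoded partners were compared because they form the same complexes. Nuclear-encoded oxidative phosphorylation genes had a median of -1.03, with 45 of 46 lower in the groove (42 after median-of-ratios scaling). ATP5G, a subunit of the ATP synthase ring, had 491 against 643 TPM, and COX6A1, of cytochrome c oxidase, had 231 against 451 TPM. Of the mitochondrially encoded transcripts, 6 entries reached a mean of 100 TPM, and all 6 were lower in the groove (median -1.07). Several of the 6 were partial entries for cytochrome c oxidase subunit I, so they stand for fewer than 6 genes. Most of the 6 also share the stem of their assembly identifier. Cytochrome c oxidase subunit III had 3458 against 7973 TPM and an entry for subunit I had 2078 against 3942 TPM. The other 10 entries went both ways, 4 of them lower in the groove, so that the median over all 16 was -0.40. Among them NADH dehydrogenase subunit 6, named after its value was seen, had 108 against 46.1 TPM. Of the 75 cytosolic ribosomal proteins with a mean of at least 100 TPM, 74 were lower in the groove on the deposited scale, but their median of -0.27 turned to 0.14 with median-of-ratios scaling.

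Proportions within a profile do not depend on how the profiles are scaled to each other. The 45 mitoribosomal members summed to 11.0% of the summed nuclear-encoded oxidative phosphorylation genes in the groove, against 11.5% in the submarginal zone. Set against the mitochondrially encoded subunits, the shares were 3.81% and 3.61%. Against the cytosolic ribosomal proteins they were 0.55% and 0.92%. The 17 TIM and TOM genes summed to 46.4% and 45.3% of the mitoribosomal sum. These mitochondrial sums thus held nearly the same proportions to each other in both regions, whereas the proportion of the mitoribosome to the cytosolic ribosome was higher in the submarginal zone. Sums of smaller groups departed from this in both directions. The log2 ratio of the summed TPM was -1.01 for the mitoribosome, but -1.55 for the small TIM genes and -1.34 for the translation factor list. It was -1.31 for the prohibitins and -0.81 for the proteases. Single genes weigh on such sums, as TIM10B and TIM8 did among the small TIM genes and elongation factor Tu among the translation factors. The median plain fold was 2.03 for the mitoribosome, 2.12 for the translation factor list and 2.34 for the small TIM genes. The sums were not recomputed without these genes. Without replicate values, the error of these proportions is unknown.

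**Figure D5:**
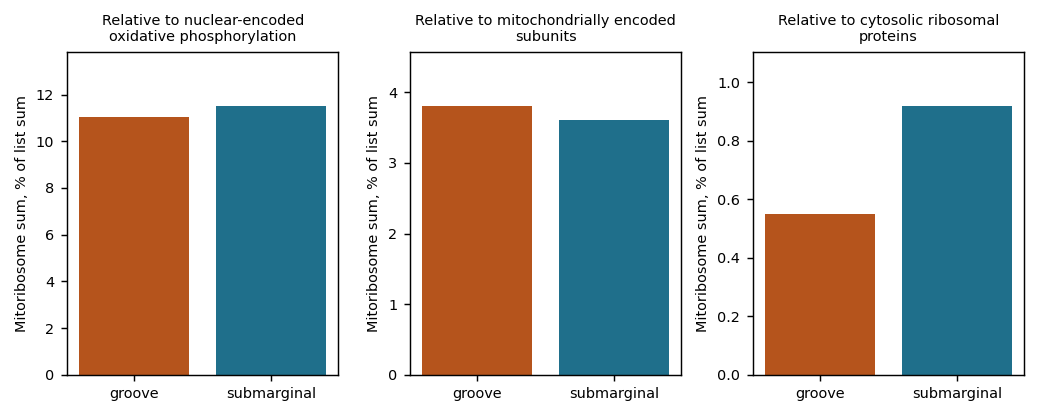
Summed TPM of the 45 mitoribosomal members as a percentage of the summed TPM of nuclear-encoded oxidative phosphorylation genes, mitochondrially encoded subunits and cytosolic ribosomal proteins, in each region (bars from 0, each panel with its own axis). The bars are of similar height in the first and second panels and differ in the third, at 0.55% and 0.92%.

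Whole tissue was sequenced, and markers of germ cells, cilia and proliferation were lower in the groove, as the mitochondrial genes were, more often than the 66.8% of all genes. By count of entries, muscle and haemocyte markers were lower about as often as all genes. Of 13 muscle entries with a mean of at least 1 TPM, 8 were lower in the groove (6 after median-of-ratios scaling). The 32 matched entries summed to 4590 against 14464 TPM, mostly paramyosin, myosin heavy chain and calponin. Muscle entries with a mean of at least 100 TPM, all named for these proteins, had log2 ratios from -1.89 to -1.06. The 5 muscle entries that were higher in the groove were named for titin or tropomyosin. All 6 germ cell markers were lower in the groove, summing over 8 matched entries to 19.997 against 400 TPM. In the groove, TSSK, SYCP1, SYCP2 and DMC1 lay between 0.02 and 0.30 TPM, and NANOS3 and a piwi-like entry were listed at 0. Nearly all of the groove sum came from PIWIa, with 19.3 against 95.6 TPM. Of 43 cilia markers, 38 were lower in the groove (364 against 1020 TPM over 76 entries), of which 10 were listed at 0 there and 8 in the submarginal zone. All 10 proliferation markers were lower (39.1 against 333 TPM over 11 entries), and of 50 haemocyte markers 34 were lower, or 27 after median-of-ratios scaling (2337 against 3815 TPM over 66 entries). The 6 tyrosinase entries, enzymes that tan the periostracum, were a check of the tissue written after their values were seen, and summed to 96.8 against 77.3 TPM with none listed at 0. Of the 4 with a mean of at least 1 TPM, 2 were lower in the groove, among them the most abundant tyrosinase, with 31.7 against 68.6 TPM, and the higher sum rested on a tyrosinase-like tyr-3 protein, partial, with 57.5 against 4.80 TPM. The part of these cell types in the result was not tested. In bulk tissue, fewer cells of a type and less RNA per cell cannot be told apart.

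Of the 64 members, 59 matched a protein of Mytilus mussels, including all 15 with RP-L or RP-S names. The 5 others matched more distant animals. They were the 28S proteins S14 and S6, the 39S protein L52, TIM13 and TIM9, and their log2 ratios of -0.76 to -1.23 lay within the range of the rest.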

How the data were processed

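RNA of the periostracal groove and of the submarginal zone was sequenced from Illumina TruSeq libraries, per the labels' protocols, and fastp was among the tools, per the submitters' processing notes. The assembler, the quantifier and the protein database searched were not given in the sources used here; gene identifiers have the Trinity form. The authors deposited 1 TPM value per gene and region, and the values summed to 999875 and 999820. All were whole multiples of 1/300 (tolerance 0.002 on the value times 300), the step of a mean of 3 values with 2 decimals. TPM keeps no depth, which is therefore unknown and allows no counting error. Both value columns are headed with the groove's library name, so each table was assigned by the GEO record that lists it; an exchange would turn every direction. The 5 genes without values were left out.

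Log2 ratios used a pseudocount of 1 TPM and a mean of at least 1 TPM, and no test was made. Named were all TIM, TOM and PHB members, per subunit the 6 most abundant and the 4 lowest and 4 highest ratios, and up to 3 of the most abundant genes per related list. Members and lists were chosen with earlier results of these data known, and list patterns were corrected after product names and values had been seen. Only the log2 ratio and the 2-fold call were tried on simulated data, with 4-fold changes planted in abundant genes. The list statistics, and differences as small as those of most members, were not tried. No genome or sequence table was used. Scripts ran under Python 3.11.15 with pandas 2.3.3, numpy 2.4.6 and, for plots, matplotlib 3.10.9.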

Additional observations from a re-analysis of the deposited data

How the results depend on the processing

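The members' median log2 ratio of -0.92 became -1.07 with a pseudocount of 0.1 TPM, -0.65 with 5 TPM, -0.94 with a mean of at least 5 TPM and -0.92 without the RP-L and RP-S names. It was -0.58 with median-of-ratios scaling, -0.70 with upper-quartile scaling and -0.89 when each profile was rescaled after leaving out its 10 most abundant genes and those of the other. In the order of the last 3 settings, the log2 ratio of the summed TPM of -1.02 became -0.60, -0.74 and -0.96; it was -1.01 with a mean of at least 5 TPM and -1.02 without the RP names. The count of 28 members at least 2-fold lower became 34 with a pseudocount of 0.1 TPM (25.6% of all genes), 5 with 5 TPM (5.45%), 5 with median-of-ratios scaling (12.7%), 8 with upper-quartile scaling (13.8%) and 0 at 4-fold (4.97%). With both scalings the members' share was below that of all genes. No member was 2-fold higher under any of these. With no minimum, or with 1 fragment per product name, no member value could move, because all 64 members passed the minimum and each name occurred once. The all-gene share beside the count of 28 was 9.79% with no minimum, in place of 17.5%. A pseudocount cannot turn the sign of a gene's ratio, and a scaling multiplies the whole groove profile by the same factor. These settings could therefore turn the direction only for ratios close to 0. Because 1 TPM was added after scaling, low genes shifted less. With median-of-ratios scaling TIM17 went from -0.55 to -0.14 and MRPL47 from -0.92 to -0.68. Among named members, roles and related lists, 6 values reversed, those of RP-S16 (0.30 with median-of-ratios, 0.18 with upper-quartile scaling), the cytosolic ribosomal proteins (0.15 and 0.010) and those of at least 100 TPM (0.14 and 0.0032); these scalings raise the groove. No paired analysis was possible because each region has 1 deposited profile, which also leaves no replicate to leave out. Depth is unknown, so the error of low values such as MRPL47 at 1.19 TPM cannot be given.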

Other observations

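Within the lists described, some genes with paired functions had unlike ratios; these were chosen after their values were seen. Subunit 1 of the inner membrane protease, which cleaves sorting signals, had 1.33 against 6.35 TPM (groove first), and its subunit 2 had 5.34 against 8.85 TPM. The ribosome recycling factor, which helps to split the ribosome after translation, had 0.95 against 3.37 TPM, and elongation factor G, which moves the ribosome along its message, had 2.07 against 3.60 TPM. ClpX had 1.24 against 11.8 TPM, and its proteolytic partner CLPP had 4.84 against 9.49 TPM, but a second entry, clpX-like, had 3.63 against 5.57 TPM. No replicate values bear on these differences.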
